A study of Homo sapiens with 24 samples.

Results

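The genes described here encode the machinery that makes ribosomes, together with the DEAD-box helicases whose symbols begin with DDX. They were taken by symbol alone: UBTF, and the RRP, NOP, UTP, NOL, NOC, POLR1 and DDX genes that were listed in every library of a batch. The rule found 33 genes among the 6603 listed in all libraries of batch 1, and the same 33 among the 7223 of batch 2. Of these, 26 have a role in ribosomal RNA synthesis or ribosome assembly, 13 of the 33 are DDX helicases, and 7 of those helicases act elsewhere in the cell.

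TT-seq, which enriches transcripts labelled during a short pulse and so reads newly made RNA, was run on DLD1 cells, an established human colorectal adenocarcinoma line. In 24 libraries there were 12 groups with biological duplicates, from 3 engineered lines. The INTS11-dTAG line carries a dTAG knock-in at INTS11, the endonuclease of the Integrator complex. The INTS8-dTAG line carries it at INTS8, the subunit that holds the phosphatase module, and the N211del line (INTS8-dTAG_INTS8-N211del) is that INTS8-dTAG line with ectopic INTS8-N211del. The small molecule dTAG13 directs a tagged protein to degradation. In batch 1 each line received dTAG13 or the vehicle DMSO for 3 h, and in batch 2 the INTS11-dTAG and N211del lines were sampled at 0, 1 and 3 h of dTAG13. No group analysed here is an untagged line given dTAG13, batch 2 has no vehicle group at 1 or 3 h, and the labels do not say whether each line is 1 clone. Loss of the tagged protein cannot be read from RNA, because the tag acts on the protein.

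Ribosome production begins in the nucleolus, where RNA polymerase I transcribes the ribosomal DNA with the help of factors such as UBTF. Box C/D ribonucleoproteins built around NOP58 modify the precursor RNA, the small subunit processome folds and cleaves it, and a separate set of factors assembles the large subunit. All of the protein factors are themselves products of RNA polymerase II, the enzyme on which Integrator acts by cleaving nascent RNA and removing phosphates. In colorectal cancer cells, which divide rapidly, demand for ribosomes is high.

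Promoter sequences are shown for 4 genes that the results turn on: POLR1F and NOL11, whose responses differed between lines in both batches, DDX60L, the gene that rose in every depletion, and UTP14A, a small subunit gene that fell in several. Each is the 250 bases upstream of the start site in RefSeq (GRCh38.p14), read 5′ to 3′ on the gene's strand, with capitals marking matches to the motifs searched. POLR1F lies at chr7:19709038-19709287 on the minus strand, NOL11 at chr17:67717686-67717935 on the plus strand, DDX60L at chr4:168480493-168480742 on the minus strand and UTP14A at chrX:129905914-129906163 on the plus strand.
POLR1F: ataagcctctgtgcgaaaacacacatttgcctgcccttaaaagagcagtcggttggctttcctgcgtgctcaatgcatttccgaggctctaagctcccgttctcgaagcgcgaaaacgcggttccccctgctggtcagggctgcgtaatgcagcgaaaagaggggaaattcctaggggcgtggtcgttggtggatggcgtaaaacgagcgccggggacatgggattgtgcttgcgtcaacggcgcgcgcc
NOL11: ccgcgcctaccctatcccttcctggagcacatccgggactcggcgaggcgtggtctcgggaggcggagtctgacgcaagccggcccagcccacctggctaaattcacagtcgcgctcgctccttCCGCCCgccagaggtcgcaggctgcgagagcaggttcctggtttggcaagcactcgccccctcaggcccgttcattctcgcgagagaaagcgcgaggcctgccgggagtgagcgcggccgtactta
DDX60L: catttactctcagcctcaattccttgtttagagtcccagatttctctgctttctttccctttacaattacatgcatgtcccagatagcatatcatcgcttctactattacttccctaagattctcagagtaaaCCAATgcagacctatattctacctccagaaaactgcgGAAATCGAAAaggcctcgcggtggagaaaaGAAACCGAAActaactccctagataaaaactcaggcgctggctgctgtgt
UTP14A: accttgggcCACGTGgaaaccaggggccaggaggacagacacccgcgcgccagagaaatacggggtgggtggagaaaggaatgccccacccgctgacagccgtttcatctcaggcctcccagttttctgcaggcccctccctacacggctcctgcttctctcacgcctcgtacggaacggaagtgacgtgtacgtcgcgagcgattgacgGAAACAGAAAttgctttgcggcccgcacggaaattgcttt
The POLR1F window held none of the 9 motifs. The NOL11 window held a GC box (GGGCGG, here on the other strand) at -126. The DDX60L window held a CCAAT box at -117 and the interferon response pattern (GAAA, any 2 bases, GAAA) at -80 and -50. The UTP14A window held an E-box (CACGTG) at -241 and the interferon response pattern at -40. Both strands were searched, and the matches describe letters only.

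Of the 33 genes, 28 had a promoter in the table, and each motif was set against the same window of all 35116 promoters. The ETS pattern CCGGAAG was in 8 of 28, or 28.6%, against 8.52% of all promoters. GGGCGG was in 15 of 28, or 53.6%, against 42.6% of all promoters. CACGTG was in 3 of 28 against 6.34%, the interferon response pattern in 3 of 28 against 3.02% and the NRF1 motif (GCGCA and GCGC with 1 base between them) in 3 of 28 against 5.07%. The 3 genes with the interferon response pattern were DDX60, DDX60L and UTP14A. CCAAT was in 5 of 28 against 32.0%, TATAAA in 2 of 28 against 10.7%, TGACGTCA (cyclic AMP response element) in 2 of 28 against 1.65% and TGANTCA (AP-1) in 0 of 28 against 6.57%.

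The deposited values were TT-seq signal per kilobase of gene length, introns included, called the level here. The whole-number units behind them summed to between 5514811 and 8114955 per library in batch 1 and between 8706126 and 11261859 in batch 2, and the lowest total of any of the 33 genes in a library was 134 units. Duplicates correlated at 0.994 to 0.997, and in 8 of the 12 groups the spread between them was that of counting alone (chi-square under 1.1 per gene). Labelled as biological duplicates, they were each counted as 1 library, and the counts with such pairs averaged to 1 sample are given at the end. The epithelial markers EPCAM, KRT8, KRT18, KRT19, CDH1 and CDX2 were high in both batches, CDH17 was near the 40th percentile, and of 8 markers of other cell types 0 were listed in batch 1 and 1 in batch 2 (COL1A1, at 0 to 0.318). In bulk libraries of this kind, fewer cells and less new RNA per cell cannot be told apart. For batch 1 no factor per library was seen in the values, so as deposited, sequencing depth cannot be told apart from these either. The N211del libraries with DMSO summed to 5.61e+06 and 5.51e+06 units, and the INTS8-dTAG libraries with DMSO to 7.31e+06 and 7.42e+06. The p-values measure the spread between these libraries.

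By level, 28 of the 33 genes were above the median gene in both batches. DDX3X, a helicase of translation initiation, had the highest mean over the 24 libraries at 112 per kb, followed by the small subunit gene UTP3 at 111. NOP58, a core protein of the box C/D ribonucleoproteins, averaged 74.4 and DDX21, a nucleolar helicase that acts with RNA polymerases I and II, 69.5. UBTF averaged 38.4 and led the RNA polymerase I genes, while DDX18 at 40.4 led the large subunit genes. The interferon-induced helicases DDX60L at 6.36 and DDX60 at 1.75 were the lowest. DDX3X and DDX3Y are near-identical copies on the X and Y chromosomes, so reads may be split between them and values for either are uncertain.

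As deposited, the genes more often fell than rose after INTS11 depletion at 3 h, were divided after INTS8 depletion, and more often rose than fell in the N211del line, whereas after centring on the median gene more fell than rose in all 7 comparisons. In batch 1 INTS11 depletion, 1 of 33 was higher and 14 were lower than with DMSO at an adjusted p under 0.05 (limma across all genes, Benjamini-Hochberg adjustment), against 19.4% higher and 19.8% lower of all genes tested. In INTS8 depletion 5 were higher and 8 lower, against 34.6% and 21% of all genes. In the N211del line given dTAG13, 11 were higher and 1 lower, against 48.5% and 7.1% of all genes. In batch 2 the INTS11 line had 7 higher and 6 lower at 1 h (46% and 9.86% of all genes) and 3 higher and 13 lower at 3 h (36% and 19.3%). The N211del line had 17 higher and 0 lower at 1 h (66% and 4.92%) and 8 higher and 4 lower at 3 h (49.7% and 13.8%). The share that rose was below the background in each of these comparisons.

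**Figure D1:**
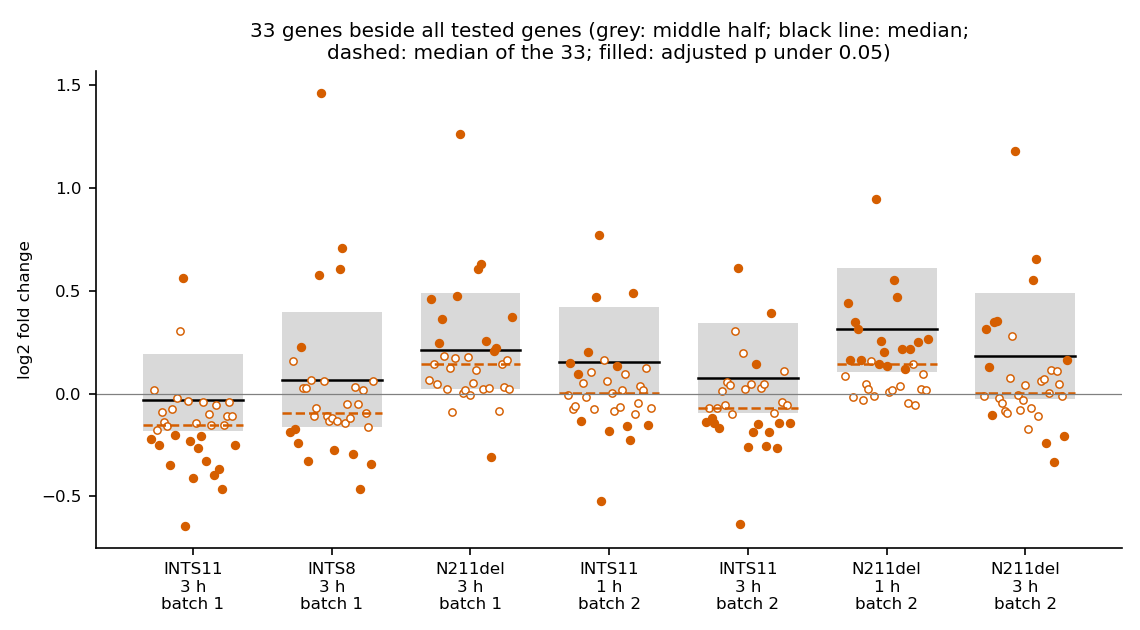
Log2 change in level after dTAG13 in the 7 depletion comparisons, with 1 point for each of the 33 genes (filled where the adjusted p was under 0.05), their median as a dashed line, and the median and quartiles of all genes tested as a black line and a grey box. The median of the 33 genes was 0.07 to 0.18 below that of all genes in every comparison.

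All genes together moved as well, and the 33 genes were read relative to that. The median gene changed by -0.03 in batch 1 INTS11 depletion, by 0.06 in INTS8 depletion and by 0.21 in the N211del line, on the log2 scale. The median of the 33 genes was -0.15, -0.10 and 0.14 in these comparisons. The median gene of batch 2 changed by 0.16 at 1 h and 0.08 at 3 h for INTS11 depletion, and by 0.31 at 1 h and 0.18 at 3 h for N211del cells. With centring, the subtraction of each library's median log2 value, the 33 genes had 2 higher and 17 lower in batch 1 INTS11 depletion (26.1% and 24.5% of all genes), 5 and 20 in INTS8 depletion (30.7% and 36.4%), and 4 and 15 in the N211del line (26.9% and 35.2%). In batch 2 the centred counts were 2 higher and 18 lower at 1 h (29% and 30.3%) and 2 and 16 at 3 h (31.8% and 28.9%) in the INTS11 line, and 4 and 25 at 1 h (29.5% and 36.1%) and 6 and 21 at 3 h (30.9% and 35.1%) in the N211del line. Of the 17 genes higher in the N211del line at 1 h, 9 were lower after centring. Level moved with the change too. As deposited, after INTS11 depletion in batch 1, 34.0% of genes in the highest of 4 equal bins of level were lower, against 42.4% of the 33 genes. In that bin 13.9% were lower at 1 h and 23.9% at 3 h in the batch 2 INTS11 line, against 18.2% and 39.4%. The order was reversed elsewhere: 31.1% against 24.2% after INTS8 depletion, and 7.29% against 3.03% in the batch 1 N211del line. In batch 2 that line had 6.96% against 0% at 1 h and 18.1% against 12.1% at 3 h. The part of level in the result was not tested.

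Leaving out single libraries changed several of these counts. The 14 lower genes of batch 1 INTS11 depletion became 9 without either INTS11 dTAG13 library, and the 13 of batch 2 at 3 h became 6 without INTS11 0 h replicate 1 and 7 without INTS11 3 h replicate 2. The 8 lower genes of INTS8 depletion became 5 without DMSO replicate 1, 4 without DMSO replicate 2 and 5 without dTAG13 replicate 2. The 11 higher genes of the N211del line in batch 1 became 18 without dTAG13 replicate 1, and 3 in place of 1 were lower without dTAG13 replicate 2. The 17 higher at 1 h in the N211del line became 11 without 0 h replicate 1, the 7 higher at 1 h in the INTS11 line became 4 without 0 h replicate 1 or 1 h replicate 2, and the 4 lower at 3 h in the N211del line became 2 without 3 h replicate 2.

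**Figure D2:**
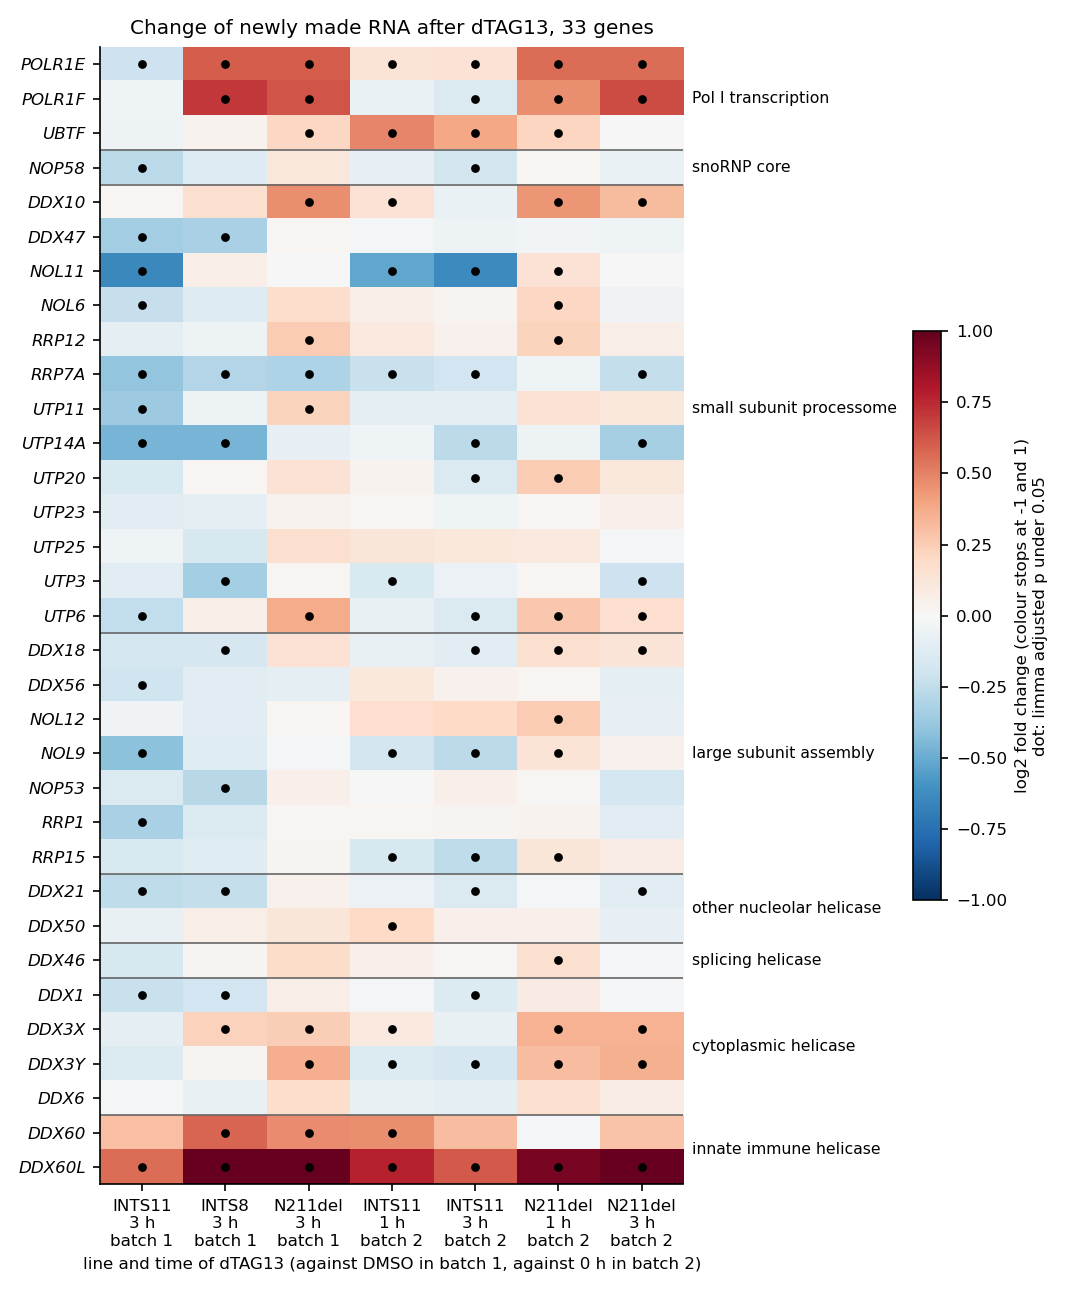
Log2 change in level after dTAG13 for each of the 33 genes (rows, grouped by role) in the 7 depletion comparisons (columns), as colour from blue (lower) to red (higher), with a dot where the adjusted p was under 0.05. DDX60L was higher in all 7, POLR1E and POLR1F were higher in the INTS8 and N211del columns, and NOL11 was lower in the 3 INTS11 columns.

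RNA polymerase I has 2 subunit genes in the set, POLR1E and POLR1F, which encode an associated heterodimer protein and a stalk protein of the enzyme. Both rose after INTS8 depletion and in every N211del comparison. POLR1E was at 52.4 and 49.3 per kb with dTAG13 in the INTS8-dTAG line, against 33.88 and 32.97 with DMSO. It was at 35.8 and 37.4 with dTAG13 in the N211del line, against 24.3 and 23.7 with DMSO. In both lines the dTAG13 and DMSO libraries did not overlap, and the log2 changes were 0.60 ± 0.07 (SE, n = 2 libraries per group, as throughout; adjusted p = 1.93e-07) and 0.61 ± 0.07 (adjusted p = 1.82e-07). After centring, these 2 changes were 0.50 and 0.34, still called. In the INTS11-dTAG line of batch 1, POLR1E was at 29.1 and 28.4 with dTAG13 against 31.9 and 34.5 with DMSO, a change of -0.21 ± 0.07 (adjusted p = 0.0249).

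The N211del line of batch 2 had POLR1E at 35.2 and 33.9 at 0 h, 50.4 and 51.2 at 1 h and 49.7 and 51.9 at 3 h. As deposited the rise was 0.56 ± 0.04 at 1 h (adjusted p = 9.16e-07) and 0.56 ± 0.04 at 3 h (adjusted p = 1.15e-06), and after centring 0.21 and 0.36, called at both times. Between 1 h and 3 h the centred change of 0.15 was not called (adjusted p = 0.0746). The INTS11 line had 25.5 and 26.1 at 0 h, 27.7 and 28.8 at 1 h and 28.7 and 28.3 at 3 h. Its changes of 0.13 ± 0.04 (adjusted p = 0.0134) and 0.14 ± 0.04 (adjusted p = 0.00917) were -0.02 and 0.09 after centring and were then not called. As deposited the INTS11 change had opposite signs in the 2 batches, where the control was DMSO in one and 0 h in the other, and the batch 2 call at 3 h was also lost without 3 h replicate 1.

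POLR1F rose in the same lines. It was at 40.8 and 39.3 per kb with dTAG13 in the INTS8-dTAG line, against 23.0 and 26.0 with DMSO (log2 change 0.71 ± 0.07, adjusted p = 4.25e-08). It was at 27.0 and 28.7 with dTAG13 in the N211del line, against 18.0 and 17.9 with DMSO (0.63 ± 0.07, adjusted p = 2.41e-07). After centring, POLR1F was still called in the 2 lines, at 0.60 and 0.37. Over time in the N211del line it was at 22.7 and 23.8 at 0 h, 32.5 and 31.9 at 1 h and 36.9 and 36.4 at 3 h. Each time point stood clear of the one before, and the 3 h level was above the 1 h level by 0.19 ± 0.05 (adjusted p = 0.0177). Over 0 h the change was 0.47 ± 0.05 at 1 h (adjusted p = 2.03e-05) and 0.65 ± 0.05 at 3 h (adjusted p = 2.73e-06), and after centring 0.12 and 0.46, still called. In the INTS11-dTAG line POLR1F was at 25.9 and 26.5 with dTAG13 against 26.9 and 27.1 with DMSO (-0.04 ± 0.07, adjusted p = 0.681), and in batch 2 at 21.6 and 19.7 at 0 h, 20.1 and 19.3 at 1 h and 19.1 and 18.1 at 3 h, where the 3 h change was -0.15 ± 0.05 (adjusted p = 0.0307).

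UBTF, the architectural factor of ribosomal DNA chromatin, rose in the INTS11 line of batch 2. It was at 20.1 and 19.1 per kb at 0 h, 28.1 and 27.0 at 1 h and 26.0 and 25.5 at 3 h. The changes were 0.49 ± 0.04 at 1 h (adjusted p = 7.3e-06) and 0.39 ± 0.04 at 3 h (adjusted p = 3.13e-05), and 0.33 and 0.34 after centring. In batch 1 the same line had 38.3 and 40.8 with dTAG13 against 39.9 and 42.3 with DMSO, and the groups overlapped (-0.05 ± 0.07, adjusted p = 0.55). In this line the 0 h libraries were the low ones of batch 2; the batches were scaled separately, so their levels were not tested against each other.

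In the N211del line UBTF was at 46.0 and 43.7 with dTAG13 against 38.5 and 39.0 with DMSO in batch 1, a change of 0.21 ± 0.07 (adjusted p = 0.0125) that was -0.05 after centring. It was at 42.8 and 43.0 at 0 h, 50.4 and 49.3 at 1 h and 43.3 and 42.9 at 3 h in batch 2. The rise of 0.22 ± 0.04 at 1 h (adjusted p = 0.000517) was gone by 3 h and was a call of lower, at -0.13, after centring. In the INTS8-dTAG line UBTF was at 44.6 and 43.9 with dTAG13 against 42.4 and 44.1 with DMSO (0.03 ± 0.07, adjusted p = 0.69).

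**Figure D3:**
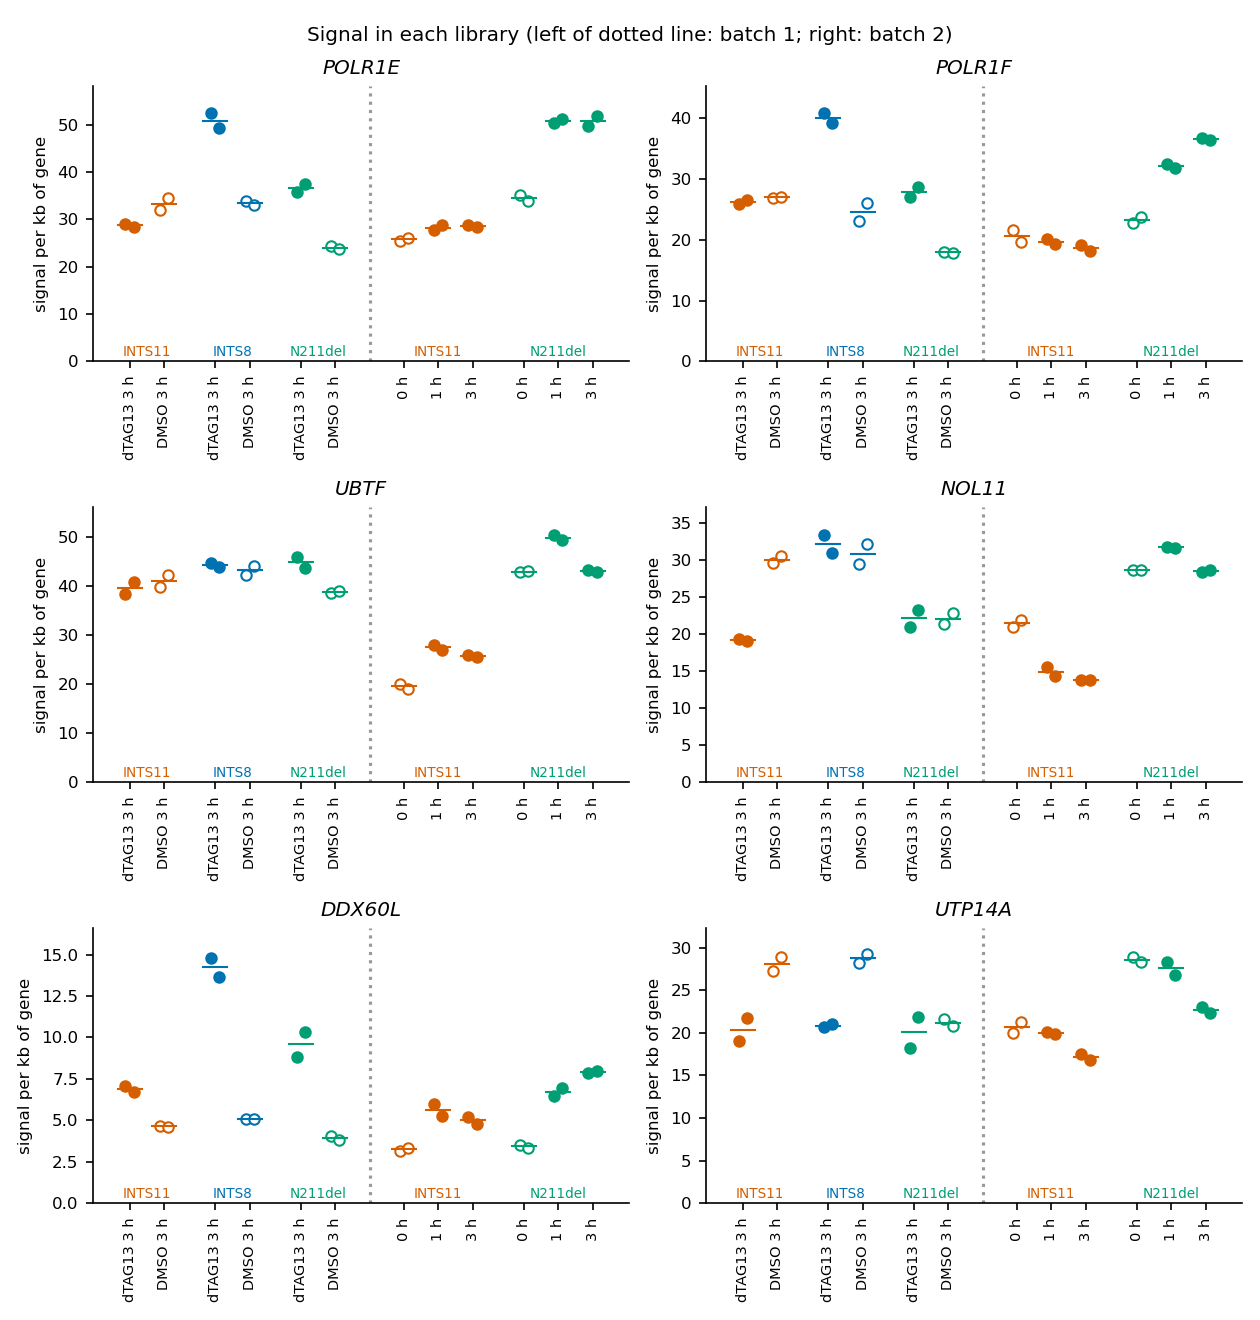
Level (signal per kb) of 6 of the genes in each of the 24 libraries, by line and treatment, with batch 1 left of the dotted line and batch 2 right of it. Each point is 1 library, open for DMSO or 0 h and filled for dTAG13, and bars are group means; POLR1E was higher with dTAG13 in the INTS8-dTAG and N211del lines, and NOL11 was lower with dTAG13 in the INTS11-dTAG line.

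The 13 small subunit processome genes were counted as deposited. In batch 1, 0 were higher and 7 lower after INTS11 depletion (53.8% lower, against 19.8% of all genes), 0 and 4 after INTS8 depletion (30.8% lower, against 21%) and 4 and 1 in the N211del line (30.8% higher, against 48.5%). In batch 2 the INTS11 line had 1 higher and 3 lower at 1 h (7.69% and 23.1%, against 46% and 9.86% of all genes). At 3 h it had 0 and 5 (38.5% lower, against 19.3%). The N211del line had 6 and 0 at 1 h (46.2% higher, against 66%). At 3 h it had 2 and 3 (15.4% and 23.1%, against 49.7% and 13.8%). With centring, between 0 and 1 were higher and between 6 and 11 lower in each of the 7 comparisons. Of all genes, 26.1% to 31.8% were then higher and 24.5% to 36.4% lower. After centring RRP7A and UTP14A were lower in 7 of 7 comparisons, and NOL11 in 6.

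NOL11, a processome protein that in human cells is also needed for ribosomal DNA transcription, had the largest fall of the set. It was at 19.4 and 19.0 per kb with dTAG13 in the INTS11-dTAG line, against 29.6 and 30.5 with DMSO (-0.64 ± 0.08, adjusted p = 1.34e-06). The line was, in batch 2, at 21.0 and 21.9 at 0 h, 15.6 and 14.3 at 1 h and 13.8 and 13.8 at 3 h. The changes of -0.52 ± 0.04 (adjusted p = 1.22e-05) and -0.63 ± 0.04 (adjusted p = 5.62e-06) were nearly of the batch 1 size, with no overlap between times 0 h and 1 h.

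In the other lines NOL11 did not fall as deposited. It was at 33.5 and 30.9 with dTAG13 in the INTS8-dTAG line, against 29.5 and 32.1 with DMSO (0.06 ± 0.08, adjusted p = 0.516). In the N211del line it was at 21.0 and 23.3 with dTAG13, against 21.4 and 22.8 with DMSO (0.00 ± 0.08, adjusted p = 0.971). In batch 2 that line had 28.7 and 28.7 at 0 h, 31.8 and 31.7 at 1 h and 28.4 and 28.7 at 3 h. The 1 h rise of 0.15 ± 0.04 (adjusted p = 0.013) was a call of lower, at -0.20, after centring, and the N211del values in batch 1 and at 3 h were also called lower after centring, at -0.26 and -0.20.

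UTP14A, which in yeast activates a helicase of the processome, fell after depletion of either subunit. It was at 19.0 and 21.7 per kb with dTAG13 against 27.3 and 28.9 with DMSO in the INTS11-dTAG line (-0.47 ± 0.09, adjusted p = 0.000254). It was at 20.6 and 21.0 with dTAG13 against 28.2 and 29.3 with DMSO in the INTS8-dTAG line (-0.46 ± 0.09, adjusted p = 0.000105). The N211del line of batch 1 was an exception, with 18.2 and 21.9 with dTAG13 against 21.6 and 20.8 with DMSO. Those libraries overlapped, and UTP14A was not called there as deposited but was called lower after centring. As deposited, in batch 2 UTP14A was not called at 1 h in either line and was lower at 3 h, while after centring it was already lower at 1 h, with log2 changes of -0.20 for the INTS11 line (adjusted p = 0.0131) and -0.40 for N211del (adjusted p = 0.00024). The INTS11 line was at 20.01 and 21.29 at 0 h, 20.1 and 19.9 at 1 h and 17.5 and 16.8 at 3 h, and the N211del line at 28.9 and 28.3, 28.3 and 26.9, and 23.1 and 22.3 at the same times. The deposited change between 1 h and 3 h, -0.22 ± 0.04 in INTS11-dTAG cells (adjusted p = 0.0207) and -0.28 ± 0.04 in N211del cells (adjusted p = 0.00183), was lost after centring, at -0.12 (adjusted p = 0.255) and -0.13 (adjusted p = 0.15).

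RRP7A, another processome gene, was lower in 6 of the 7 depletion comparisons and, after centring, in 7 of 7. It was at 22.5 and 23.9 per kb with dTAG13 against 29.4 and 31.7 with DMSO in the INTS11-dTAG line (-0.39 ± 0.08, adjusted p = 0.00057). With N211del it was at 22.5 and 23.5 with dTAG13 against 28.3 and 28.7 with DMSO, a change of -0.31 ± 0.08 (adjusted p = 0.00249). Its annotation overlaps the pseudogene SERHL, so its values are uncertain. DDX10 went the other way in the N211del line, with 14.8 and 16.5 with dTAG13 against 11.3 and 11.3 with DMSO (0.46 ± 0.08) in batch 1, and 0.44 at 1 h and 0.31 at 3 h in batch 2. After centring these were 0.20, 0.09 and 0.12, still called.

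UTP3 was at 86.1 and 91.6 with dTAG13 against 106 and 120 with DMSO in the INTS8-dTAG line, a change of -0.34 ± 0.09 (adjusted p = 0.00497). In the N211del line of batch 2 it was lower, at -0.21 ± 0.05 at 3 h than at 0 h (adjusted p = 0.00738), a call that was lost without 3 h replicate 2 (adjusted p = 0.0525). DDX47 was at 34.6 and 33.5 with dTAG13 against 43.1 and 42.3 with DMSO in that INTS8-dTAG line (-0.33 ± 0.07, adjusted p = 0.000759). In the INTS11-dTAG line of batch 1 DDX47 was likewise lower, at 32.4 and 31.2 with dTAG13 against 39.6 and 41.2 with DMSO. As deposited DDX47 was called lower in 2 of the 7 comparisons. Among processome genes, UTP23 and UTP25 were not called in any of the 7 comparisons as deposited. After centring UTP23 was lower in 4 of the 7 and UTP25 in 3.

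Of the 7 large subunit genes, 0 were higher and 3 lower after INTS11 depletion in batch 1, 0 and 2 after INTS8 depletion and 0 and 0 in the N211del line. Lower genes were thus 42.9% after INTS11 depletion, against 19.8% of all genes, and 28.6% after INTS8 depletion, against 21%. The INTS11 line of batch 2 had 0 and 2 at 1 h (28.6% lower, against 9.86% of all genes). At 3 h it had 0 and 3 (42.9% lower, against 19.3%). The N211del line had 4 and 0 at 1 h (57.1% higher, against 66% of all genes). At 3 h it had 1 and 0 (14.3% higher, against 49.7%). With centring 0 were higher and between 3 and 7 lower in each of the 7 comparisons, against 24.5% to 36.4% lower of all genes. NOL9, a polynucleotide kinase that processes the internal spacer of the precursor, had 21.3 and 24.3 per kb with dTAG13 against 30.2 and 30.2 with DMSO in the INTS11-dTAG line (-0.41 ± 0.08, adjusted p = 0.000351). It was also lower in that line in batch 2, with changes of -0.18 ± 0.05 at 1 h and -0.26 ± 0.05 at 3 h. NOP58 was at 81.1 and 80.6 with dTAG13 against 97.0 and 97.5 with DMSO in the INTS11-dTAG line (-0.27 ± 0.07), and DDX21 at 68.5 and 70.2 against 81.9 and 83.2 (-0.25 ± 0.07). For both genes the dTAG13 libraries lay below the DMSO libraries in that line. DDX21 was also lower in the INTS8-dTAG line, at 70.2 and 66.8 with dTAG13 against 79.8 and 82.2 with DMSO. As deposited DDX21 was called lower in 4 of the 7 comparisons and NOP58 in 2. After centring both genes were lower in 7 of 7.

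As deposited, the 7 helicases outside ribosome assembly were called in either direction or not at all. DDX60L, known from antiviral responses, rose in all 7 comparisons. In the INTS8-dTAG line it was at 14.8 and 13.7 per kb with dTAG13 against 5.11 and 5.08 with DMSO (1.46 ± 0.10, adjusted p = 2.34e-11). In the N211del line it was at 8.83 and 10.4 with dTAG13 against 4.05 and 3.81 with DMSO (1.262 ± 0.10, adjusted p = 3.38e-10), and in the INTS11-dTAG line at 7.09 and 6.69 against 4.67 and 4.60 (0.56 ± 0.10, adjusted p = 0.000119). The dTAG13 libraries were above the DMSO libraries in each line, and the calls held after centring.

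In batch 2 DDX60L was at 3.18 and 3.31 at 0 h, 5.96 and 5.26 at 1 h and 5.21 and 4.81 at 3 h in the INTS11 line (0.77 ± 0.07 at 1 h, adjusted p = 2.39e-05, and 0.61 ± 0.07 at 3 h, adjusted p = 0.000118). The N211del line had 3.52 and 3.35 at 0 h, 6.497 and 6.938 at 1 h and 7.88 and 7.95 at 3 h (0.95 ± 0.07 at 1 h, adjusted p = 2e-06, and 1.18 ± 0.07 at 3 h, adjusted p = 5.78e-07). The level went on rising between 1 h and 3 h in the N211del line, by 0.23 ± 0.07 (adjusted p = 0.0306). DDX60, its neighbour in the family, was at 1.75 on average and was called higher in 3 of the 7 comparisons, by 0.58 in the INTS8-dTAG line, 0.48 in the N211del line of batch 1 and 0.47 ± 0.14 in the INTS11 line at 1 h. The last of these was lost after centring, at 0.31 (adjusted p = 0.0678), and on leaving out any of 3 single libraries, and the N211del call was also lost after centring. DDX3X was higher by 0.25 in batch 1, 0.35 at 1 h and 0.35 at 3 h in the N211del line and by 0.23 in INTS8 depletion, but after centring it was -0.01 in the first of these and 0.00 at 1 h and was then not called. DDX6 was not called in any comparison as deposited but was lower in 3 of the 7 after centring. DDX46, a splicing helicase, was higher at 1 h in the N211del line by 0.16 and lower there after centring, at -0.19.

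The batches used different control libraries, so their calls can be compared. Of the 14 genes lower after INTS11 depletion in batch 1, 8 were also lower at 3 h in batch 2, which is 57.1% of the batch 1 and 61.5% of the batch 2 calls. Over the 6569 genes tested in both batches the same shares were 60.1% and 58.2%, so the overlap was near that of all genes. The 8 were DDX1, DDX21, NOL11, NOL9, NOP58, RRP7A, UTP14A and UTP6. Of the 11 genes higher in the N211del line in batch 1, 7 were also higher at 3 h in batch 2, which is 63.6% of the batch 1 and 87.5% of the batch 2 calls. Over all genes these shares were 86.5% and 82.8%. The 7 were DDX10, DDX3X, DDX3Y, DDX60L, POLR1E, POLR1F and UTP6. After centring 4 genes were higher in both batches, with DDX3X, DDX3Y and UTP6 no longer called in batch 1. The 4 were 100% of the batch 1 and 66.7% of the batch 2 calls, against 86.5% and 74.4% over all genes. Lower in both after centring were 14 genes in the N211del line (93.3% and 66.7%, against 81.2% and 77.4%). For the INTS11 line there were 11 (64.7% and 68.8%, against 74% and 59.3%).

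The difference between responses was tested directly in the same fit. In batch 1 the N211del response was above the INTS11 response in 22 of 33 genes and below it in 0, against 43.7% and 4.8% of all genes, and after centring in 6 and 0, against 15.1% and 18.8%. The 22 became 14 without INTS11 dTAG13 replicate 1. POLR1E differed by 0.81 ± 0.10 (adjusted p = 2.5e-06), DDX60L by 0.70 ± 0.14 (adjusted p = 0.000469), POLR1F by 0.67 ± 0.11 (adjusted p = 4.41e-05) and NOL11 by 0.65 ± 0.11 (adjusted p = 0.000105). After centring, the difference was 0.52 for POLR1E and 0.41 for DDX60L, still called.

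**Figure D4:**
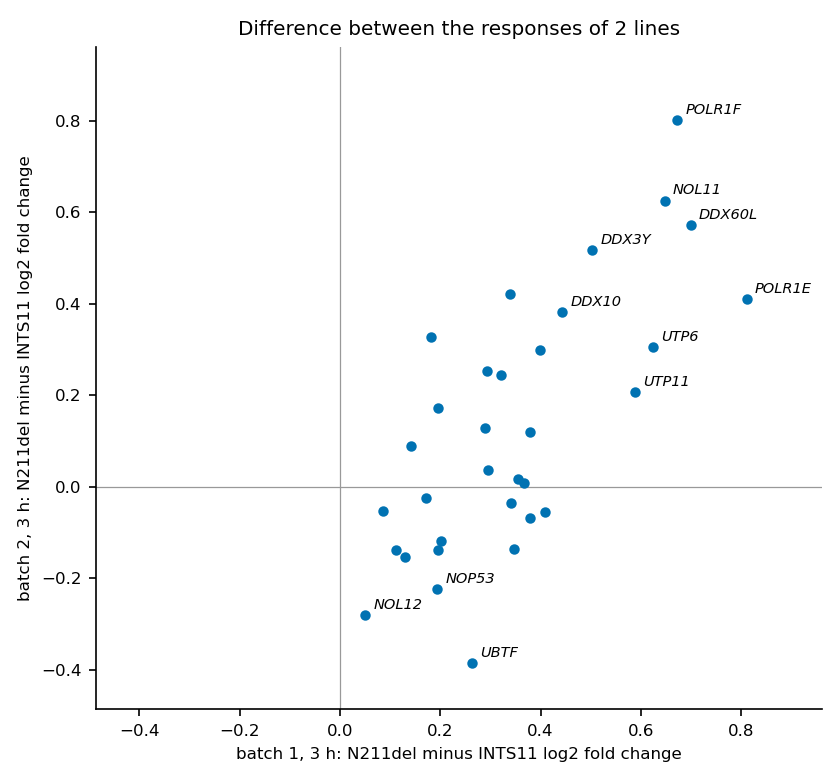
Difference between the dTAG13 responses of the N211del and INTS11-dTAG lines at 3 h (N211del log2 change minus INTS11 log2 change) for each of the 33 genes, batch 1 on the horizontal axis and batch 2 on the vertical axis. POLR1F, NOL11, DDX60L and POLR1E lay far above 0 in both batches, and UBTF was at 0.26 in batch 1 and -0.39 in batch 2.

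The INTS8 response was above the INTS11 response in 5 genes and below it in 0, against 19.4% and 6% of all genes, and after centring in 5 and 2, against 17.1% and 20.9%. POLR1E differed by 0.81 ± 0.10 (adjusted p = 2.15e-06), POLR1F by 0.75 ± 0.11 (adjusted p = 1.24e-05), NOL11 by 0.71 ± 0.11 (adjusted p = 4.46e-05) and DDX60L by 0.90 ± 0.14 (adjusted p = 3.81e-05). After centring, the difference was 0.67 for POLR1E and 0.76 for DDX60L, still called. The N211del response was above the INTS8 response in 3 and below it in 0, against 9.04% and 2.01% of all genes, and after centring 1 and 1, against 4.36% and 7.13%. As deposited, the difference between these responses for POLR1E was 0.00 ± 0.10 (adjusted p = 0.992). After centring, its rise was 0.34 in the N211del line and 0.50 in the INTS8-dTAG line. That count of 3 became 17 without N211del dTAG13 replicate 1, and 0 or 1 without each of 6 other libraries.

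In batch 2 the N211del response was above the INTS11 response in 13 genes and below it in 1 at 1 h, against 39.3% and 9.24% of all genes, and in 12 and 1 at 3 h, against 35.8% and 15.2%. After centring the counts were 5 and 7 at 1 h, against 22.3% and 25.8%, and 10 and 13 at 3 h, against 25.2% and 28.7%. NOL11 differed by 0.67 ± 0.06 at 1 h (adjusted p = 3.78e-05) and 0.63 ± 0.06 at 3 h (adjusted p = 4.15e-05), and POLR1F by 0.53 ± 0.07 (adjusted p = 0.000272) and 0.80 ± 0.07 (adjusted p = 2.29e-05). UBTF was the gene below, at -0.27 ± 0.05 at 1 h (adjusted p = 0.00222) and -0.39 ± 0.05 at 3 h (adjusted p = 0.000274). The count of genes below became 3 at 1 h without N211del 1 h replicate 2, and 3 at 3 h without INTS11 0 h replicate 1 or N211del 3 h replicate 1.

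The INTS11 line had 0 genes higher and 4 lower at 3 h of dTAG13 than at 1 h, against 0.475% and 15.1% of all genes. The N211del line had 2 higher and 10 lower, against 2.2% and 35%. After centring, the INTS11 line had 0 and 0, against 1.55% and 1.21%, while the N211del line had 7 and 0, against 11.6% and 7.63%. Leaving out single libraries of the N211del comparison gave 0 higher genes and between 3 and 6 lower, and those of the INTS11 comparison between 0 and 5 lower. UTP14A, DDX10, UTP20 and DDX3X were the 4 lower genes of the INTS11 line, and 0 of those 4 and 0 of the 10 in the N211del line were lower after centring.

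Without depletion the lines also differed, and the direction depended on the batch. With DMSO in batch 1, 0 genes were higher and 24 lower in the N211del line than in the INTS8-dTAG line, against 5.03% and 58.7% of all genes, and after centring 5 and 14, against 26.3% and 26.3%. Between INTS8-dTAG and INTS11-dTAG cells with DMSO, 0 were higher and 1 lower (RRP1, at -0.21 ± 0.08, adjusted p = 0.0408), against 26.8% and 3.91% of all genes. After centring these counts were 0 and 11, against 21.2% and 18.4%. The RRP1 call was lost on leaving out any of the 4 libraries and with the replicate number as a block. At 0 h in batch 2, 24 were higher and 4 lower in the N211del line than in the INTS11 line, against 38.4% and 31.6% of all genes, and after centring again 24 and 4, against 36.7% and 35.5%. Those 4 became 2 without either line's 0 h replicate 1.

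**Figure D5:**
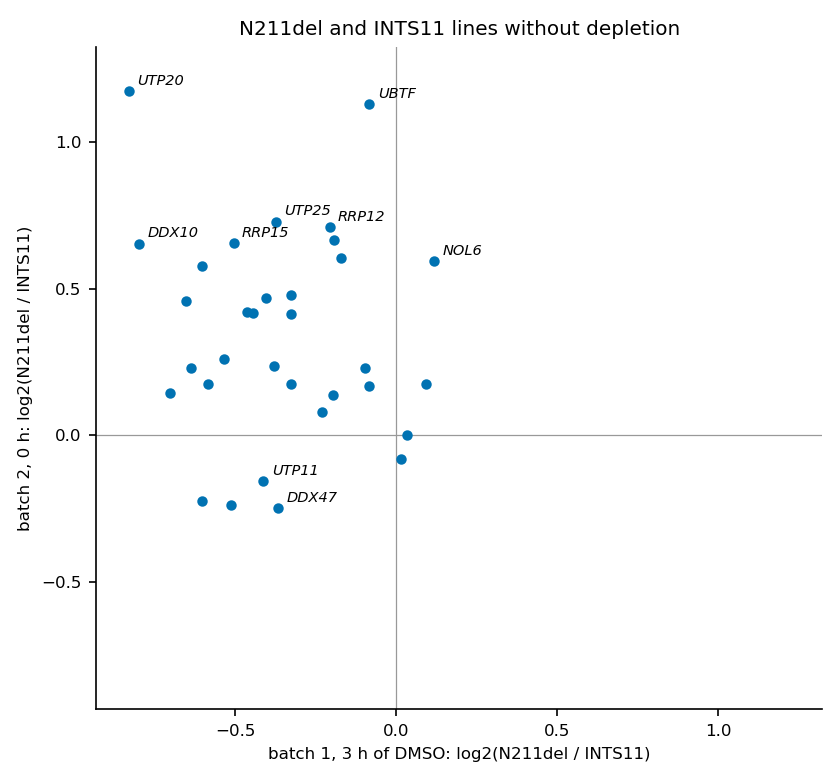
Log2 difference between the N211del and INTS11-dTAG lines without depletion for each of the 33 genes, in batch 2 (0 h) against batch 1 (DMSO). UTP20 and UBTF were well above 0 in batch 2, and 19 genes were lower in batch 1 and higher in batch 2.

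The comparison of the same lines in batch 1, added after the data were seen, ran the other way. With DMSO, 0 genes were higher and 24 lower in the N211del line than in the INTS11-dTAG line, against 19.7% and 45.9% of all genes, and after centring 3 and 18, against 36.8% and 31.4%. The median of the 33 genes was -0.37 and that of all genes -0.17. There were 19 genes lower in batch 1 and higher in batch 2, and 4 called the same way in both. Vehicle and batch cannot be told apart between these 2 baselines.

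UTP20, a scaffold protein of the small subunit processome, showed this most plainly. It was at 14.6 and 15.4 per kb at 0 h in the N211del line of batch 2, against 6.78 and 6.42 in the INTS11 line (1.17 ± 0.05, adjusted p = 5.82e-08). With DMSO in batch 1 it was at 9.45 and 10.0 in the N211del line, against 17.2 and 17.6 in the INTS11-dTAG line (-0.83 ± 0.08, adjusted p = 3.58e-08) and 15.4 and 16.2 in the INTS8-dTAG line (-0.69 ± 0.08, adjusted p = 9.95e-07). The libraries did not overlap in any of these pairs. After centring, the UTP20 difference between the N211del and INTS8-dTAG lines with DMSO was -0.38, still called. For UBTF the difference was 1.13 ± 0.04 in batch 2 (adjusted p = 1.44e-08), while in batch 1 it was -0.08 ± 0.07 (adjusted p = 0.29).

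Ribosome biogenesis genes outside the symbol rule were counted in the same way. Of a list of 107 further factors, 47 were measured in both batches, as were 3 of 10 further RNA polymerase I factors. After INTS11 depletion 0 of 47 were higher and 27 lower (57.4%, against 19.8% of all genes) in batch 1, and 1 and 27 (57.4%, against 19.3%) at 3 h in batch 2. After INTS8 depletion 3 were higher and 9 lower (6.38% and 19.1%, against 34.6% and 21% of all genes). The N211del line had 15 and 1 in batch 1 (31.9% and 2.13%, against 48.5% and 7.1%). At 3 h in batch 2 it had 18 and 6 (38.3% and 12.8%, against 49.7% and 13.8%). At 1 h in batch 2 INTS11 depletion gave 6 and 14 (12.8% and 29.8%, against 46% and 9.86%). N211del cells then gave 27 and 1 (57.4% and 2.13%, against 66% and 4.92%). All of these counts are as deposited.

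EXOSC2, a subunit of the RNA exosome that trims ribosomal precursors, was at 32.8 and 33.5 per kb with dTAG13 against 48.6 and 51.5 with DMSO in the INTS11-dTAG line (-0.59 ± 0.07, adjusted p = 1.09e-06). NPM1, the abundant nucleolar chaperone, was at 222 and 218 with dTAG13 against 313 and 319 with DMSO in the INTS8-dTAG line (-0.52 ± 0.06, adjusted p = 8.06e-08), while RPF2, a large subunit factor, was higher there (0.44 ± 0.07). SBDS, which acts late in large subunit maturation, was at 27.1 and 30.6 with dTAG13 against 19.7 and 19.3 with DMSO in the N211del line of batch 1 (0.56 ± 0.08, adjusted p = 4.82e-06), where NPM1 was lower, at -0.15 ± 0.06. In the INTS11 line at 3 h in batch 2, the processome gene IMP3 was higher by 0.44 ± 0.06 and WDR43 lower, at -0.36 ± 0.04. At 3 h in the N211del line WDR75 was higher by 0.36 ± 0.06, and TAF1B, a subunit of the RNA polymerase I initiation factor, was lower, at -0.32 ± 0.04.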

How the data were processed

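TT-seq libraries of 24 DLD1 samples were analysed, 2 per group, grouped by the times and treatments in the titles and characteristics, although the treatment protocol of the labels gives 3 h for all. The authors deposited 1 table per library, made before deposit as a signal per kilobase of gene length, introns included, though headed FPKM per the file headers. No per-million scaling is seen in the values: multiplied by 1 length per gene, 100% of batch 1 values were whole (tolerance 1e-05), and 99.97 to 100% of batch 2 values (tolerance 0.05) after a factor of 0.565 to 0.753 per library. The test planned for FPKM was used on these signal values. Per the submitters' processing notes the tools were STAR 2.7.5c, Trim Galore 0.6.6, Picard 2.23.3, SAMtools 1.9 and DESeq2 1.26.0, with the builds hg19 and mm10, none with a stated role. The kit is stranded per the labels' protocols; the strand setting and the tool of counting are not given in the sources used here, and 18 of the 33 genes overlap another RefSeq gene, 5 of them a long noncoding RNA and 0 a protein-coding gene.

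Genes listed in all libraries of a batch with a mean of at least 0.1 were kept (6579 in batch 1 and 6950 in batch 2, with all 33 genes in both). Each batch was fitted separately on log2(signal + 0.1) with limma 3.58.1 (R 4.3.3), 1 coefficient per group, trended robust variance and Benjamini-Hochberg adjustment over all genes. On this scale the change of a low gene is understated. The procedure was tested on simulated data. In a simulation of batch 1 INTS11 depletion on 6579 genes, 19 of 50 genes changed 1.25-fold and 44 of 50 changed 1.5-fold were recovered. In it 12 unchanged genes were called falsely. For batch 2 INTS11 depletion at 3 h, on 6950 genes, 30 of 50 and 44 of 50 were recovered, and 17 unchanged genes were called falsely. The median standard error of a treatment change was 0.09 in batch 1 and 0.06 in batch 2.

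The genes and lists were chosen with earlier results of these data known. Named with values were UBTF and the POLR1 genes, the 3 called members with the largest rise and fall in each depletion comparison, the 2 each way for differences between responses and for baselines, the highest member of each role, and the pathway gene with the largest rise and fall in each comparison at 3 h; other names were chosen after their values were seen. On the pathway list MPP6 was read as MPHOSPH6, since the gene listed as MPP6 has the length of PALS2. Alternatives were a pseudocount of 0.01 or 1, a minimum mean of 1 or none, centring, a replicate block (same-numbered libraries of different groups correlated at -0.118 to 0.107 in batch 1 and -0.103 to 0.068 in batch 2, so the numbers do not pair them), a fit on only the libraries compared and leaving out each library; limma-voom, averaged pairs and the batch 1 line comparison were added after seeing the data. NOP58, DDX18, POLR1E, UTP23 and RRP12 had no promoter in the table used.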

Additional observations from a re-analysis of the deposited data

Results flagged for a closer look

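The responses of 2 lines differed, by the test of the difference itself in limma (Benjamini-Hochberg adjustment), for the following genes, chosen as the largest differences in each direction. In batch 1 at 3 h the INTS8 response minus the INTS11 response was 0.90 for DDX60L and 0.81 for POLR1E. The N211del response minus the INTS11 response was 0.81 for POLR1E and 0.70 for DDX60L. After centring, these 2 were 0.52 and 0.41, and the INTS8 response minus the INTS11 response was 0.76 for DDX60L and 0.67 for POLR1E. The N211del response minus the INTS8 response was 0.35 for DDX47 (adjusted p = 0.0388) and 0.34 for DDX3Y (adjusted p = 0.0333), each lost on leaving out any of 6 single libraries, with 0.25 to 0.44 for DDX47 and 0.30 to 0.38 for DDX3Y.

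In batch 2 the N211del response minus the INTS11 response at 1 h was 0.67 for NOL11, 0.53 for POLR1F and -0.27 for UBTF. At 3 h it was 0.80 for POLR1F, 0.63 for NOL11 and -0.39 for UBTF. The UBTF difference was -0.47 at 1 h and -0.53 at 3 h after centring. NOL11 was then at 0.47 and 0.48, and POLR1F at 0.34 and 0.66.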

How the results depend on the processing

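Of the 54 results for genes named for the largest differences, 47 kept their call under all alternatives, 7 lost it under at least 1 and 0 reversed. Over all 98 calls of the 33 genes in the depletion comparisons, centring kept 70, lost 19 and turned 9 from higher to lower, with UBTF, NOL11 and DDX46 among these 9, which were all N211del calls at 1 h. The 7 named results were DDX3Y and DDX47 (N211del minus INTS8 response), DDX60 (INTS11, 1 h), POLR1E (INTS11, batch 2, 3 h), RRP1 (INTS8 against INTS11 DMSO), UTP3 (N211del, 3 h) and UBTF (N211del minus INTS11 response at 1 h, adjusted p = 0.0577 in limma with pairs averaged). Counts of called genes among the 33 moved more, as follows. Counts over all genes moved in these fits too, and the cause was not tested. With pairs of duplicates within counting noise averaged, which leaves fewer samples, higher genes numbered 4 in INTS11 1 h, 11 in N211del 1 h, 7 in N211del batch 1, 0 in N211del 3 h against 1 h, 7 in the N211del minus INTS11 response at 1 h, 7 in that of batch 1 and 0 in N211del minus INTS8. Lower genes then numbered 6 in INTS11 batch 1, 4 in INTS11 batch 2 at 3 h, 0 in INTS11 3 h against 1 h, 3 in INTS8, 0 in INTS8 against INTS11 DMSO, 3 in N211del 3 h against 1 h and 0 in the N211del minus INTS11 response at 1 h.

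After centring, higher genes numbered 2 in INTS11 1 h, 2 in INTS11 batch 1, 4 in N211del 1 h, 4 in N211del batch 1, 7 in N211del 3 h against 1 h, 5 in N211del against INTS8 DMSO, 5 in N211del minus INTS11 at 1 h, 6 in that of batch 1 and 1 in N211del minus INTS8. Lower genes numbered 18 in INTS11 1 h, 0 in INTS11 3 h against 1 h, 20 in INTS8, 11 in INTS8 against INTS11 DMSO, 2 in INTS8 minus INTS11, 25 in N211del 1 h, 15 in N211del batch 1, 21 in N211del 3 h, 0 in N211del 3 h against 1 h, 14 in N211del against INTS8 DMSO, 7 in N211del minus INTS11 at 1 h, 13 in that at 3 h of batch 2 and 1 in N211del minus INTS8.

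A fit on only the libraries compared gave 4 higher in INTS11 1 h, 1 in INTS8 against INTS11 DMSO and 8 in INTS8 minus INTS11, and 8 lower in INTS11 batch 2 at 3 h, 0 in INTS11 3 h against 1 h and 2 in N211del minus INTS11 at 3 h of batch 2. Voom gave 2 higher in INTS11 batch 1, 1 in INTS8 against INTS11 DMSO, 8 in INTS8 minus INTS11 and 10 in N211del minus INTS8, and 8 lower in INTS11 3 h against 1 h and 2 in N211del minus INTS11 at 1 h. With the replicate number as a block, lower genes in INTS8 against INTS11 DMSO numbered 0 in place of 1, and no other count moved by over 1.5 times; the numbers do not pair the libraries. The pseudocounts and filters moved no count by over 1.5 times.

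Leaving out 1 library at a time, with the lone library left in a group assumed to vary like the others, higher genes ranged from 4 to 5 in INTS11 1 h, 11 to 19 in N211del 1 h, 8 to 18 in N211del batch 1, 0 to 0 in N211del 3 h against 1 h, 14 to 24 in N211del minus INTS11 of batch 1 and 0 to 17 in N211del minus INTS8. Lower genes ranged from 9 to 10 in INTS11 batch 1, 6 to 12 in INTS11 batch 2 at 3 h, 0 to 5 in INTS11 3 h against 1 h, 4 to 7 in INTS8, 0 to 0 in INTS8 against INTS11 DMSO, 2 to 4 in N211del against INTS11 at 0 h, 1 to 3 in N211del batch 1, 2 to 4 in N211del 3 h, 3 to 6 in N211del 3 h against 1 h, 1 to 3 in N211del minus INTS11 at 1 h and 1 to 3 in that at 3 h of batch 2. With 2 libraries a group, changes near or below the standard errors given could not be detected reliably. Larger changes could be missed too. In the simulation of batch 1 INTS11 depletion described above, most genes given the smaller change were not recovered.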
